A study of Mus musculus with 95 samples.

Results

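Collagen genes encode the chains of the most abundant proteins of the extracellular matrix. They were taken as all mouse symbols made of Col, a type number, the letter a and a chain number, with FPKM (fragments mapped to a transcript, scaled to its length and to the fragments mapped in the library) above 0 in at least 5 of 95 libraries. Of 25407 symbols listed, 40 had such a name and 38 met the rule. The 2 left out, Col25a1 and Col6a6, were listed at 0 in every library. The 38 genes comprised 11 fibrillar chains, 9 FACIT chains (fibril-associated collagens with interrupted triple helices), 6 basement membrane chains of type IV, 3 beaded filament chains of type VI, 3 hexagonal network chains, 3 transmembrane chains, 2 multiplexins and Col28a1.

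The libraries came from mRNA of 4 tissues, the sciatic nerve (SCN), the dorsal root ganglia (DRG), and the glomeruli (Glom) and cortex (Cortex) of the kidney, of 16-week-old male mice of the strain labelled BKS.Cg-m +/+ Leprdb/J. The diabetic mice, db/db, lack functional leptin receptor, overeat and become obese, and serve as a model of type 2 diabetes. The non-diabetic mice, db/+ (db+ in the labels), carry a single mutant copy and otherwise share the background. Each genotype was left untreated or given pioglitazone (PIO), an insulin-sensitising PPARγ agonist, at 15 mg/kg for 11 weeks, which gave the arms db/db PIO, db/db, db/+ PIO and db/+. Each arm of each tissue had 6 libraries, apart from DRG db/db with 5. The mutation and the drug act in the whole animal, so changes that follow from obesity, blood glucose or food intake cannot be told apart from each other. Each tissue was extracted whole, and fewer cells of a type and less RNA per cell cannot be told apart.

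All collagens are trimers with stretches of triple helix in which glycine opens every triplet of amino acids (Gly-X-Y), because no larger residue fits at the centre of the helix. Fibrillar types I, II, III, V and XI have an almost unbroken helix and form the banded fibrils of skin, bone, cartilage, endoneurium and scar. Type IV forms the sheet of basement membranes, including the glomerular filter, and is built of the chain sets α1α1α2, α3α4α5 and α5α5α6. Type VI forms beaded microfilaments around cells, FACITs sit on fibril surfaces, and multiplexins XV and XVIII lie in and next to basement membranes. Accumulation of collagen in the mesangium and around tubules is a hallmark of diabetic kidney disease.

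The triplet can be read in the coding sequence of the genes on which the results below turn. The following windows of 90 bases are from GENCODE vM1 transcripts on mouse build mm9, the build of the deposited values. They run 5′ to 3′, with glycine codons of the reading frame in capitals. Positions in the coding sequence are counted from 1 at the A of the start codon. All windows but that of Col4a3 lie inside the longest unbroken Gly-X-Y stretch.
Col1a1, chain α1 of type I, bases 1978 to 2067: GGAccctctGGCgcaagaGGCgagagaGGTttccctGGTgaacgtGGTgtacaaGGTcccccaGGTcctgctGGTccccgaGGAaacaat
Col3a1, type III, bases 1993 to 2082: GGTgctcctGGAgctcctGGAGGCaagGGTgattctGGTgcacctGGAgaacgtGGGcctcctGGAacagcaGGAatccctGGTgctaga
Col2a1, type II, bases 2077 to 2166: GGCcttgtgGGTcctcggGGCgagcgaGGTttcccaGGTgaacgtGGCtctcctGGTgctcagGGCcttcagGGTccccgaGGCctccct
Col6a1, chain α1 of type VI, bases 1108 to 1197: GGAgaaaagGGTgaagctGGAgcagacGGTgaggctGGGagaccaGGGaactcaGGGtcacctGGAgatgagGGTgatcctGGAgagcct
Col6a2, chain α2 of type VI, bases 1153 to 1242: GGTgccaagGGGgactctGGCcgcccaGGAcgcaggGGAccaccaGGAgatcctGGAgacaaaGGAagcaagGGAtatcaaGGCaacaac
Col15a1, type XV, bases 1975 to 2064: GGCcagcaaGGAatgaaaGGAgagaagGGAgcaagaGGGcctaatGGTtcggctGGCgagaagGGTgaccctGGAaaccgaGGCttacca
Col4a3, chain α3 of type IV, bases 433 to 522: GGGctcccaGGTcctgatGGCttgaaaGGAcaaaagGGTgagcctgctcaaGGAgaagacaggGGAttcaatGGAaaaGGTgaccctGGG
The window of Col4a3 spans the end of its longest stretch and shows the kind of break that sets type IV apart from the fibrils, where the spacing of the capitals is lost and then resumes.

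All 38 genes were matched to gene models, in which the fibrillar class stood apart by run length while the ranges of most other classes overlapped. The longest run of triplets led by a glycine codon had 216 to 344 triplets in fibrillar genes, 39 to 66 in type IV, 32 to 113 in FACITs, 45 to 87 in type VI and 30 in each multiplexin. Fibrillar genes are built of many short exons that hold whole triplets. Of the 1724 coding exons of the collagen genes, 62.3% had a length that was a multiple of 9 bases, against 14.5% of the 197791 coding exons of all genes. The share was 82.4% in fibrillar genes and 45.5% in type IV genes. In mm9, Col1a1 lies at chr11:94797538-94814356 on the plus strand, Col3a1 at chr1:45368383-45406551 (plus), Col2a1 at chr15:97806033-97835155 (minus), Col15a1 at chr4:47221033-47326039 (plus) and Col4a3 at chr1:82583496-82718634 (plus). Col6a2 (chr10:76058507-76086375) and Col6a1 (chr10:76171537-76188913) are neighbours on the minus strand, 85161 bases apart. The type IV genes lie head to head in pairs. The models of Col4a1 and Col4a2 overlap by 22 bases, Col4a4 and Col4a3 are 71 bases apart, and Col4a6 and Col4a5 are 1308 bases apart. The library kit does not mark strand, so reads from the overlap could belong to either gene.

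The values in hand have a large share of zeros that cannot be read as absence. Of 3610 entries of the 38 genes, 1852 (51.3%) were exactly 0, and the share was 67.2% in SCN, 40.5% in DRG, 51.6% in Glom and 45.4% in Cortex. By the median of the values above 0, 71.9% of entries were 0 where it was over 10 FPKM, 42.9% from 1 to 10, 30.8% from 0.1 to 1 and 42.4% under 0.1. Over all genes these shares were 60.4%, 48.1%, 34.5% and 61.2%, so zeros were frequent at both ends of the scale. The same held for genes that every cell uses, since Actb was listed at 0 in 74 and Eef1a1 in 46 of 95 libraries. A 0 was therefore taken as a missing value in every comparison, and n below is the number of libraries with a value. Summed FPKM ran from 129009 to 601310 per library, and the read depth of each library is unknown. Marker genes of the tissues often lacked values, so the tissue labels could be checked on few genes only. Podxl of podocytes had 1430.72 to 3085.47 FPKM in Glom, where 2 or 3 of 6 podocyte markers had a value in each arm. In DRG 1 or 2 of 7 sensory neuron markers had a value in each arm. Prph, Scn10a and Isl1 of sensory neurons were listed at 0 throughout DRG.

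**Figure D1:**
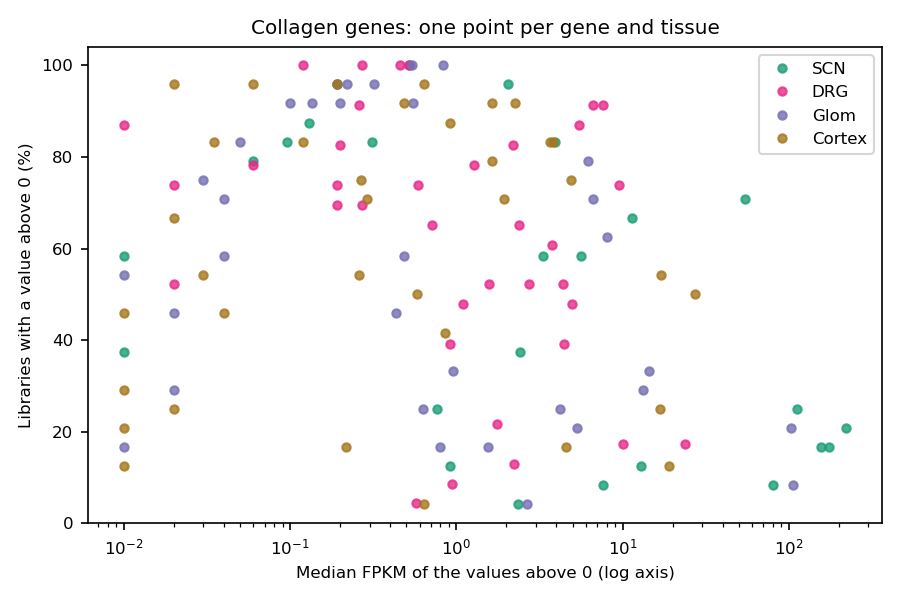
Percentage of libraries with a value above 0 (y axis) against the median FPKM of those values (x axis, log), with 1 point per collagen gene and tissue, coloured by tissue. Among genes over 10 FPKM 71.9% of entries were 0, and among those under 0.1 FPKM 42.4% were.

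In SCN Col1a1 had a value in 5 of 24 libraries, from 153.95 to 321.39 FPKM, Col3a1 in 4, from 91.59 to 225.19 FPKM, and Col4a1 in 4, from 161.74 to 193.62 FPKM. These were the highest levels of the 3 genes in any tissue, and none could be compared between arms in SCN. FPKM was not rescaled between tissues, and summed FPKM ran from 129009 to 601310 per library, so levels set side by side are approximate. Median Col1a1 was 220.57 FPKM in SCN, 6.64 in DRG, 1.64 in Cortex and 0.32 in Glom, with no overlap of the tissue ranges except between Cortex and Glom. Median Col6a1 was 54.80 FPKM in SCN, 3.67 in Cortex, 2.18 in DRG and 0.54 in Glom, and the ranges of the last 3 overlapped. Of the genes of cartilage collagens, median Col2a1 was 2.04 FPKM in SCN, 0.12 in DRG, 0.10 in Glom and 0.01 in Cortex, and median Col9a3, a chain of the FACIT that coats type II fibrils, was 3.92, 0.46, 0.20 and 0.06 FPKM in the same order.

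Differences between arms were tested in each tissue with limma on log2(FPKM + 1), for genes that reached 1 FPKM in 5 or more libraries of that tissue and had a value in 3 or more libraries of both arms. A log2 difference on this scale understates the change of a gene near or below 1 FPKM. A gene was called at an adjusted p under 0.05 over all genes tested. Of the 30 calls on single genes described below, 25 were lost when each 0 was kept as a value. The 5 that held were Col6a1 of Glom in both comparisons below, Col1a1 and Col3a1 of Glom for db/db PIO against db/db, and Col2a1 of SCN for db/db PIO against db/+ PIO.

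In Glom of untreated mice, the type VI chains Col6a1 and Col6a2 and the fibrillar chains Col1a1 and Col3a1 were higher in db/db than in db/+, and the multiplexin Col15a1 was lower. The same 4 chains were lower in db/db PIO than in db/db mice and were not called between db/db PIO and db/+ PIO mice, whereas Col15a1 was lowest in db/db PIO mice.

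Col6a1, whose product forms microfilaments that anchor cells to basement membrane, gave the clearest values. Its lowest, median and highest FPKM were 0.19, 0.365 and 0.86 in db/db PIO, 1.45, 2.325 and 3.38 in db/db, 0.32, 0.53 and 0.94 in db/+ PIO, and 0.41, 0.46 and 2.50 in db/+ Glom (n = 6 each). Every db/db library lay above every db/db PIO library and above 5 of 6 db/+ libraries, the exception being db/+ replicate 2 at 2.50 FPKM. The log2 differences were 0.98 (SE 0.19, adjusted p = 0.000657) for db/db against db/+ and -1.21 (SE 0.19, adjusted p = 0.000117) for db/db PIO against db/db. Both comparisons use the same 6 db/db libraries, so they are not independent.

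Col6a2, its partner in the type VI trimer, had the same order. It spanned 0.25 to 0.57 FPKM in db/db PIO (n = 5), 1.24 to 2.15 in db/db (n = 5), 0.28 to 0.95 in db/+ PIO (n = 6) and 0.40 to 2.02 in db/+ (n = 6), with medians of 0.36, 1.88, 0.47 and 0.545. Again only db/+ replicate 2 reached the db/db values. The log2 differences were 0.69 (SE 0.16, adjusted p = 0.00375) for db/db against db/+ and -0.98 (SE 0.17, adjusted p = 0.000374) for db/db PIO against db/db. The third chain, Col6a3, had values in 5 of 24 Glom libraries, 3.22 to 6.44 FPKM, and could not be compared.

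Col3a1 encodes type III collagen, which is laid down early in fibrosis. It spanned 0.37 to 1.13 FPKM in db/db PIO, 1.03 to 4.16 in db/db, 0.35 to 0.89 in db/+ PIO and 0.50 to 3.97 in db/+ (n = 6 each), with medians of 0.53, 2.56, 0.665 and 0.94. The db/db values overlapped those of db/db PIO at a single library (1.03 FPKM) and those of db/+ through replicate 2 alone. The log2 differences were 0.70 (SE 0.23, adjusted p = 0.0248) and -1.12 (SE 0.23, adjusted p = 0.00117). The first call was lost when any 1 of db/db replicates 1 and 6 and db/+ replicates 4, 5 and 6 was left out, and leaving out each library in turn gave log2 differences of 0.59 to 0.94.

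Col1a1, of the main collagen of scar, spanned 0.08 to 0.44 FPKM in db/db PIO (n = 6), 0.60 to 3.59 in db/db (n = 6), 0.13 to 0.33 in db/+ PIO (n = 5) and 0.15 to 2.40 in db/+ (n = 6), with medians of 0.175, 1.805, 0.26 and 0.38. Every db/db library exceeded every db/db PIO library. The log2 differences were 0.76 (SE 0.23, adjusted p = 0.0188) and -1.13 (SE 0.23, adjusted p = 0.00156). Col1a1 reached 1 FPKM in exactly 5 libraries, 4 of db/db and db/+ replicate 2, and leaving out any 1 of these 5 took it out of the test. In db/db these were replicates 1, 2, 3 and 6.

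Col15a1 behaved differently from the other 4. Type XV collagen lies at the junction of basement membrane and underlying fibrils, and the gene had 0.99, 1.70, 1.30, 3.61 and 4.59 FPKM in db/db PIO, 3.24, 3.61, 6.03 and 6.15 in db/db, 7.85 to 12.94 (median 10.87, n = 5) in db/+ PIO and 5.86 to 15.21 (median 9.12, n = 5) in db/+. The ranges of db/db and db/+ overlapped between 5.86 and 6.15 FPKM, while all db/db PIO libraries lay below all db/+ PIO libraries. Its log2 difference was -0.92 (SE 0.31, adjusted p = 0.0345) for db/db against db/+ and -1.84 (SE 0.29, adjusted p = 0.000612) for db/db PIO against db/+ PIO. For db/db PIO against db/db it was -0.82, with a 95% interval of -1.47 to -0.18 and an adjusted p of 0.0619, which is not a call. The first of these calls was lost when any 1 of db/db replicates 4 and 6 and db/+ replicates 1 and 3 was left out (-1.08 to -0.77 over all libraries left out in turn).

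**Figure D2:**
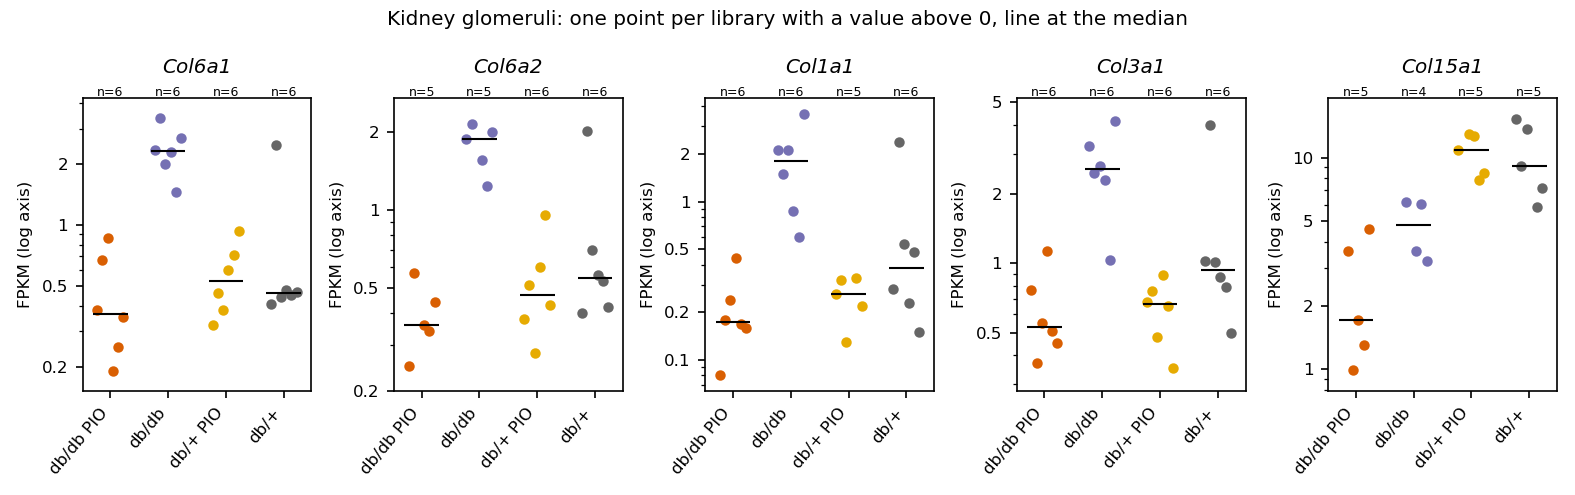
FPKM (log axis) of the collagen genes called in Glom, with a point per library with a value above 0 and a line at the median of each arm. For Col6a1 all 6 db/db libraries (1.45 to 3.38 FPKM) lie above all db/db PIO libraries (0.19 to 0.86) and above db/+ apart from replicate 2 (2.50), and Col15a1 is lower in both db/db arms.

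In counts, 7 collagen genes were tested in Glom. Of these, 4 were higher and 1 lower in db/db than in db/+, where 25.4% of 4210 genes tested were called. For db/db PIO against db/db 4 were lower, against 23.1% of 4158 genes called, and for db/db PIO against db/+ PIO 1 was lower, against 8.41% of 4255. The median log2 difference of the 7 was 0.69 for db/db against db/+ and -0.98 for db/db PIO against db/db, where that of all genes tested was 0.04 and -0.04. These counts and medians cannot stand as support, because Col6a1, Col6a2, Col1a1 and Col3a1 passed the filter only through the db/db libraries. For the first 3 genes 6, 5 and 4 db/db libraries had 1 FPKM or more, against 1 of the 18 others for each gene. For Col3a1 6 db/db libraries did, against 3 db/+, 1 db/db PIO and 0 db/+ PIO libraries, where 5 were needed. The same limit holds for the adjusted p values of these 4 genes given above. With no filter on low values 18 members were tested for db/db against db/+ and 7 called, with 18.9% of all genes called, and Col24a1 and Col5a3, 2 minor fibrillar chains, joined at log2 differences of 0.25 and 0.24. For db/db PIO against db/db it was 5 of 16, with 18% of all genes called, where Col5a3 joined at -0.24.

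PIO had no called effect on collagen genes in non-diabetic Glom. For db/+ PIO against db/+, 0 of 7 were called by limma, 0 had an unadjusted p under 0.05, and 0% of 4419 genes were called. The PIO response itself differed between genotypes for 2 of 7 members, where 9.71% of 3563 genes were called. These are again 2 genes that passed the filter through db/db libraries, and with no filter it was the same count, 2 of 15, with 7.42% of all genes called. The difference of the responses, db/db minus db/+, was -1.10 (SE 0.27, adjusted p = 0.0109) for Col6a1 and -0.81 (SE 0.23, adjusted p = 0.0291) for Col6a2. The second was lost when any 1 of db/db replicate 2, db/+ PIO replicate 5 and db/+ replicate 1 was left out (-0.98 to -0.74). In PIO-treated mice the 4 chains were not called between genotypes, and the 95% interval for Col6a1 was -0.51 to 0.27.

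Summed markers of fibroblasts and of macrophages had their highest median in db/db Glom, as these 4 chains did, and those of tubules did not. In Glom, db/+ replicate 2 had 7.20 FPKM of Lrp2 and 21.49 of Slc22a6, both of the proximal tubule, against 0.15 to 1.08 (4 libraries with a value) and 0.48 to 1.86 in the other db/+ Glom libraries, and 10.13 FPKM of Dcn, of fibroblasts. Without it the db/db against db/+ differences were 1.19 for Col6a1, 0.85 for Col6a2 and 0.94 for Col3a1 (adjusted p = 1.88e-06, 1.45e-05 and 0.000216). Replicate 2 had the highest db/+ values of these chains, so leaving it out widens the differences and cannot stand as support for them. Dcn had 0.53 to 1.87 FPKM in db/db PIO, 5.65 to 8.30 in db/db, and 0.62 to 1.92 in the other 5 db/+ libraries, with log2 differences of -1.88 for db/db PIO against db/db and 1.45 for db/db against db/+. In the sums over listed genes given here and below, an entry of 0 adds nothing, so missing values lower a sum. Over the 6 fibroblast markers, summed FPKM was 0.62 to 2.38 in db/db PIO, 6.45 to 10.51 in db/db, 0.58 to 3.06 in db/+ PIO and 0.94 to 16.02 in db/+. Over the 5 macrophage markers it was 2.00 to 14.39, 15.70 to 116.01, 17.18 to 32.91 and 6.12 to 74.28 in the same order. Over the 5 proximal tubule markers it was 7.55 to 140.56, 3.89 to 381.38, 4.90 to 275.62 and 6.02 to 4810.12. Over the 5 markers of thick limb, distal tubule and collecting duct it was 3.51 to 34.94, 0.00 to 49.77, 1.48 to 76.58 and 3.38 to 80.67. Only 1 of these 5 had any value in db/db, so the others could not be tested there. No tubule marker that could be tested was called in either comparison, the log2 difference of Lrp2 being 0.05 and -0.82. Of the 6 podocyte markers 2 or 3 had a value in each arm. Their sum was 2475.68 to 4804.07 FPKM in db/db PIO and 0.00 to 4433.24 in db/db. It was 4210.71 to 5153.57 in db/+ PIO and 3701.93 to 5513.90 in db/+. Over the 4 mesangial cell and pericyte markers it was 0.00 to 165.86, 92.37 to 143.46, 0.00 to 147.66 and 0.00 to 153.57 in the same order. The part of these cells in the collagen values was not tested.

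The enzymes that make and cut collagen were mostly not tested in Glom. Of 31 listed genes for collagen synthesis and processing 4 were tested for db/db against db/+, and 3 were higher in db/db: Adamts2, which trims the amino end of procollagen (0.64, SE 0.10), Fkbp10, a chaperone of procollagen folding (0.83, SE 0.21), and Loxl1, which starts the cross-linking of collagen and elastin (0.69, SE 0.14). The median of the 4 was 0.66, against 0.04 for all genes tested, of which 25.4% were called. Of 6 listed collagenases only Ctsk, which is lysosomal, was tested, and it had 6.52 to 14.11 FPKM in db/db libraries, against 1.58 to 4.09 in db/+ libraries (log2 difference 1.34, SE 0.19, adjusted p = 4.7e-05). Summed FPKM of the 6 collagenases was 10.39 to 64.93 in db/db and 4.52 to 80.52 in db/+. None of the 5 synthesis genes tested was called for db/db PIO against db/db, and Loxl1 had medians of 5.395 FPKM in db/db PIO and 4.82 in db/db. The collagen receptor chain Itga2 was lower in db/db (-0.78, SE 0.16).

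In SCN, db/db mice had lower Col2a1 and Col6a1 than db/+ mice, and with PIO Col2a1 fell further while Col9a3, which makes part of the type IX collagen found on type II fibrils, was also lower. No collagen gene that passed the filter was called higher in these 2 comparisons.

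Col2a1 spanned 0.23 to 0.94 FPKM in db/db PIO (n = 6), 1.07 to 2.04 in db/db (n = 6), 4.93 to 7.92 in db/+ PIO (n = 6) and 6.15 to 8.96 in db/+ (n = 5), with medians of 0.45, 1.655, 6.89 and 6.54. The ranges of db/db PIO, db/db and the non-diabetic arms did not overlap, and those of db/+ PIO and db/+ did. The log2 difference was -1.61 (SE 0.13, adjusted p = 4.81e-08) for db/db against db/+, -0.78 (SE 0.13, adjusted p = 0.00083) for db/db PIO against db/db and -2.32 (SE 0.13, adjusted p = 1.66e-11) for db/db PIO against db/+ PIO. None of these calls depended on a single library.

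Col9a3 had 2.50 to 3.34 FPKM in db/db PIO, 2.98 to 4.88 in db/db, 3.99 to 5.33 in db/+ PIO and 3.46 to 4.99 in db/+ (n = 5 each), with medians of 2.84, 4.74, 4.32 and 3.84. All db/db PIO libraries lay below all db/+ PIO libraries, while db/db and db/+ overlapped over most of their range. It was lower in db/db PIO than in db/db by a log2 difference of -0.41 (SE 0.11, adjusted p = 0.0249) and than in db/+ PIO by -0.52 (SE 0.11, adjusted p = 0.00177). For db/db against db/+ the difference was 0.04, with a 95% interval of -0.20 to 0.27. The call against db/db was lost when any 1 of db/db PIO replicate 3 and db/db replicates 2, 5 and 6 was left out (-0.51 to -0.37).

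Col6a1 had 34.74 to 60.64 FPKM in db/db (median 43.24, n = 6), against 45.33 to 98.76 in db/+ (median 75.70, n = 6), and 42.25 to 61.80 in db/+ PIO (n = 4). The groups db/db and db/+ overlapped through db/+ replicates 5 and 6, at 52.14 and 45.33 FPKM. The log2 difference was -0.60 (SE 0.18, adjusted p = 0.035), and the call was lost when any 1 of db/db replicates 2, 3, 5 and 6 and db/+ replicates 1 to 4 was left out (-0.73 to -0.50). In db/db PIO a single library had a value (94.39 FPKM), so PIO could not be compared.

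Replicates 5 and 6 of SCN db/+ stood apart in further matrix genes. Col4a3 had 0.27 and 0.30 FPKM there, against 1.28 to 2.24 in the other 4 db/+ libraries, and Comp, of cartilage and tendon, had 1.05 and 0.95 FPKM against 8.20 to 45.13. Without both, in a fit added after the data were seen, the db/db against db/+ difference was -0.86 for Col6a1 (adjusted p = 0.00144), -1.53 for Col2a1 and -1.01 for Col4a3 (adjusted p = 0.000893). With both, Col4a3 differed by -0.64 (95% interval -1.10 to -0.17, adjusted p = 0.0581). For db/+ PIO against db/+ the fit without both called Col4a3 (-1.02) and Col6a1 (-0.68), where with both none was called. Replicates 5 and 6 had the lowest db/+ values of Col6a1 and Col4a3. Leaving them out therefore widens these differences for both genes, and the fit cannot stand as support.

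Hexagonal network chains completed the tested set. Col8a2, of vessel wall and Descemet's membrane, had 8.85 to 11.57 FPKM in db/db PIO (n = 6), 8.76 to 12.67 in db/db (n = 4), 11.33 to 15.57 in db/+ PIO (n = 3) and 12.74 to 14.69 in db/+ (n = 3). It was lower in db/db PIO than in db/+ PIO (-0.39, SE 0.12, adjusted p = 0.019), a direction that turned to 1.54 when each 0 was kept as a value. Col8a1, its partner chain, had 3.63 to 5.51 FPKM in db/db (n = 4), against 6.03 to 16.91 in db/+ (n = 3), a difference of -1.01 with a 95% interval of -1.76 to -0.26 and an adjusted p of 0.0673.

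**Figure D3:**
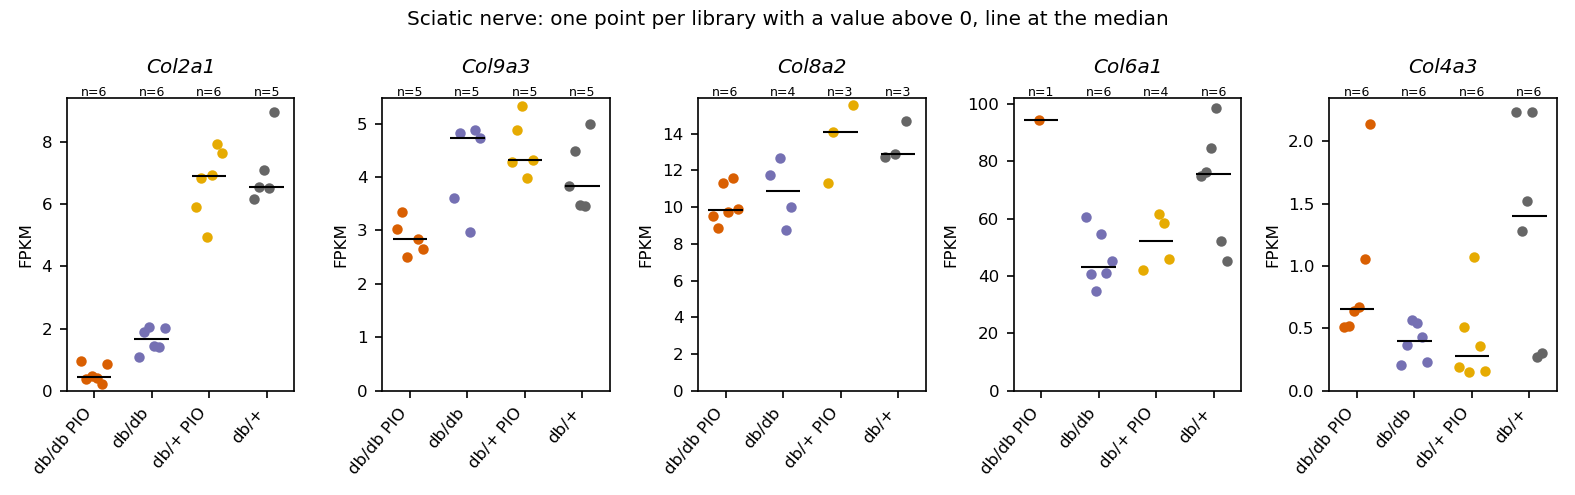
FPKM (linear axis) of the 5 collagen genes called in any SCN test, with a point per library with a value above 0 and a line at the median of each arm. Col2a1 separates db/db PIO (0.23 to 0.94 FPKM) from db/db (1.07 to 2.04) and both from the non-diabetic arms (4.93 and above), while Col6a1 has 1 value in db/db PIO.

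In counts, 2 of 6 members were called for db/db against db/+ in SCN, where 14.9% of 4233 genes were called, 2 of 5 for db/db PIO against db/db, with 10.1% of 3940, and 3 of 6 for db/db PIO against db/+ PIO, with 33.8% of 4402. All 7 calls were lower in the first-named arm. Median log2 differences of the members tested were -0.62 and -0.08 for the first 2 comparisons, against 0.02 and 0.02 for all genes tested. For db/+ PIO against db/+, 0 of 7 were called by limma and 1 had an unadjusted p under 0.05, with 0.0778% of 5142 genes called. With no filter 3 of 11 members were called for db/db against db/+, with 8.88% of all genes: Col2a1, Col4a6 (-0.25, adjusted p = 0.0135) and Col9a1, the α1 chain of type IX (0.21, adjusted p = 0.0159). In db/db PIO against db/db it was 3 of 12, with 5.4% of all genes, where Col10a1, the hexagonal chain of growth plate cartilage, joined at 0.25 (adjusted p = 0.0209). Col10a1 had 0.05 to 0.44 FPKM in db/db PIO (n = 6) and 0.02 to 0.09 in db/db (n = 5), ranges that overlapped through 1 db/db PIO library, and was chosen after its values were seen.

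The PIO response differed between genotypes in SCN for 3 of 5 members, where 6.23% of 3596 genes were called. The difference, db/db minus db/+, was -0.71 for Col2a1 (adjusted p = 0.0281), -0.56 for Col9a3 and 1.07 for Col4a3 (adjusted p = 0.0456 for both). Col4a3 passed the filter only through db/+, where it was high: 4 db/+ libraries had 1 FPKM or more, against 2 db/db PIO, 1 db/+ PIO and 0 db/db libraries. Its call and the count of 3 therefore cannot stand as support. With no filter 1 of 10 members was called, Col2a1, with 2.89% of all genes called. The call of Col2a1 was lost without db/db replicate 3 or db/+ replicate 4 (-0.79 to -0.65). That of Col9a3 held only without any 1 of db/db PIO replicates 1, 2 and 4, db/db replicates 1 and 4, db/+ PIO replicate 4 and db/+ replicates 2, 5 and 6, and was lost without each of the other 15 (-0.65 to -0.51). That of Col4a3 held only without any 1 of db/db PIO replicate 1, db/db replicate 4, db/+ PIO replicate 4 and db/+ replicates 5 and 6, and was lost without each of the other 19 (0.92 to 1.22).

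Other matrix genes of SCN moved one by one. Of the 31 synthesis and processing genes 7 were tested for db/db against db/+, and P4ha3, a prolyl hydroxylase subunit, was lower in db/db (-0.47, SE 0.14, adjusted p = 0.0259), with 14.9% of all genes called. Mmp9, a gelatinase that cuts denatured and type IV collagen, had medians of 0.395 FPKM in db/db and 3.26 in db/+ (-1.53, SE 0.22, adjusted p = 5.54e-05). For db/db PIO against db/+ PIO 8 were tested, with Loxl1, P4hb and Pcolce2 higher and Leprel1, P4ha3 and Sparc lower, where 33.8% of all genes were called. Loxl1 had medians of 11.92 FPKM in db/db PIO and 3.705 in db/+ PIO. Summed FPKM of the 5 adipocyte markers was 7230.40 to 16830.20 in db/db PIO, 2427.73 to 8591.48 in db/db, 1.94 to 9665.29 in db/+ PIO and 0.00 to 2873.66 in db/+, in an order that zeros in part set. Of the 7 cartilage markers in the files it was 4.13 to 16.80, 0.53 to 5.12, 0.43 to 3.50 and 1.13 to 45.47 FPKM in the same arms.

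For the 6 Schwann cell markers of SCN the sum was 9432.37 to 27921.50 in db/db PIO, 11234.24 to 35115.20 in db/db, 11062.30 to 40746.10 in db/+ PIO and 29070.30 to 39717.90 in db/+. For the 5 skeletal muscle markers it was 0.00 to 142.96, 4.22 to 74.54, 3.69 to 25.50 and 5.38 to 8.70 in the same order. For the 4 endothelial markers it was 0.00 to 47.77, 0.00 to 8.33, 7.72 to 41.70 and 14.70 to 41.08, with 3 of the 4 listed at 0 throughout db/db. Fibroblast and macrophage sums overlapped between all arms, at 12.81 to 2518.11 and 0.00 to 168.25 FPKM. Of single markers Mbp, of myelin, was lower in db/db than in db/+ (-0.31, SE 0.09, adjusted p = 0.0279), and C1qa, a macrophage complement gene, was higher in db/db PIO than in db/+ PIO (1.34, SE 0.20, adjusted p = 0.000167). Of all genes 14.9% and 33.8% were called in these 2 comparisons. Only 3 of the 6 Schwann cell markers had any value in db/db and in db/+, and 2 of the 5 macrophage markers in db/db PIO. The part of these cell types in the collagen values was not tested.

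In Cortex, Col6a1 was again higher in db/db than in db/+, and in db/db mice Col3a1 was lower with PIO. Col15a1 and Col3a1 were lower in db/db PIO than in db/+ PIO.

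Col6a1 had 2.55 to 5.01 FPKM in db/db PIO, 3.07 to 6.81 in db/db, 2.14 to 3.74 in db/+ PIO and 1.62 to 3.78 in db/+ (n = 5 each), with medians of 4.03, 6.40, 3.06 and 3.28. All but 1 db/db library lay above all db/+ libraries. The log2 difference was 0.70 (SE 0.19, adjusted p = 0.0244), and the call was lost when any 1 of db/db replicates 2, 4 and 5 and db/+ replicate 6 was left out (0.56 to 0.86). For db/db PIO against db/db it was -0.38, with a 95% interval of -0.79 to 0.02.

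Col3a1 had 1.06 to 2.06 FPKM in db/db PIO (n = 5), 3.20 to 4.87 in db/db (n = 5), 3.51 to 6.48 in db/+ PIO (n = 4) and 1.83 to 8.31 in db/+ (n = 6), with medians of 1.47, 3.78, 4.645 and 4.82. The db/db PIO values lay below all values of db/db and of db/+ PIO. The log2 difference was -0.97 (SE 0.23, adjusted p = 0.0284) against db/db, with a call lost when any 1 of db/db PIO replicates 5 and 6 and db/db replicates 4 and 5 was left out (-1.04 to -0.89), and -1.18 (SE 0.24, adjusted p = 0.00152) against db/+ PIO. For db/db against db/+ it was -0.16, with a 95% interval of -0.62 to 0.29.

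Col15a1 had 0.52 to 1.11 FPKM in db/db PIO (n = 6), 0.61 to 2.93 in db/db (n = 5), 1.92 to 3.67 in db/+ PIO (n = 5) and 1.82 to 4.63 in db/+ (n = 6), with medians of 0.76, 2.25, 2.27 and 3.805. All db/db PIO libraries lay below both db/+ arms. The log2 difference was -1.05 (SE 0.20, adjusted p = 0.000793) for db/db PIO against db/+ PIO. It was -0.60 (95% interval -1.02 to -0.18, adjusted p = 0.0606) for db/db against db/+ and -0.69 (95% interval -1.11 to -0.27, adjusted p = 0.0599) for db/db PIO against db/db, neither a call.

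Col1a1 was not called. It had 0.67 to 1.44 FPKM in db/db PIO (n = 6), 0.70 to 2.31 in db/db (n = 4), 0.79 to 2.64 in db/+ PIO (n = 6) and 0.69 to 3.0 in db/+ (n = 6), with a 95% interval of -0.94 to 0.02 for db/db PIO against db/db. The library numbered 6 had the lowest Col1a1 and Col15a1 values of its arm in db/db (0.70 and 0.61 FPKM), db/+ PIO (0.79 and 1.92) and db/+ (0.69 and 1.82). Without the 4 libraries so numbered, in a fit added after the data were seen, Col15a1 was called for db/db against db/+ (-0.52) and for db/db PIO against db/db (-0.88), as was Col1a1 for the second (-0.67), and Col6a1 kept its call at 0.56. The libraries numbered 6 were singled out by their Col1a1 and Col15a1 values, so this fit cannot stand as support for calls on these genes.

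**Figure D4:**
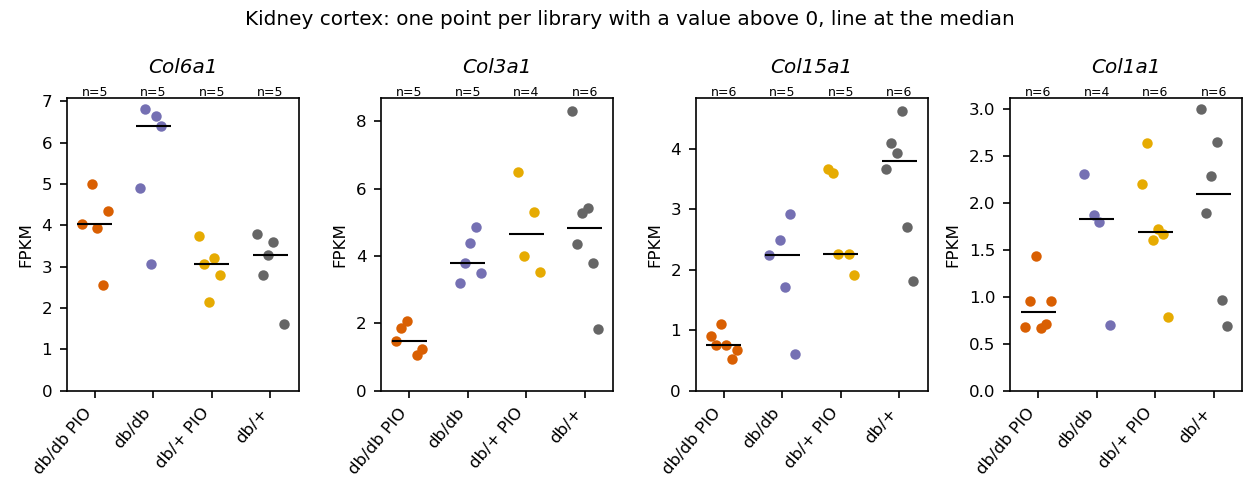
FPKM (linear axis) of the 3 collagen genes called in Cortex and of Col1a1, with a point per library with a value above 0 and a line at the median of each arm. The db/db PIO values of Col3a1 (1.06 to 2.06 FPKM) and Col15a1 (0.52 to 1.11) lie below those of db/+ PIO (3.51 and above, 1.92 and above), and Col6a1 is highest in db/db.

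In counts, 1 of 8 members was called for db/db against db/+ in Cortex, where 10.3% of 3925 genes were called, 1 of 9 for db/db PIO against db/db, with 3.24% of 3890, and 2 of 9 for db/db PIO against db/+ PIO, with 19.7% of 3865. The first and the third share lie near that of all genes. For db/+ PIO against db/+, 0 of 9 were called by limma, 0 had an unadjusted p under 0.05, and 0.025% of 4004 genes were called. For the difference of PIO responses between genotypes 0 of 8 were called, 1 had an unadjusted p under 0.05, and 0.031% of 3228 genes were called. With no filter 2 of 20 were called for db/db against db/+ (8.09% of all genes), Col6a1 and Col19a1, and 5 of 21 for db/db PIO against db/+ PIO (14.4%), where Col19a1, Col24a1 and Col5a3 joined Col15a1 and Col3a1. Col19a1, a low FACIT named here after its values were seen, had 0.01 to 0.02 FPKM in db/db PIO (n = 5) and in db/db (n = 4), against 0.40 to 0.67 in db/+ PIO (n = 3) and 0.41 to 0.80 in db/+ (n = 4), with log2 differences of -0.64 for db/db against db/+ and -0.61 for db/db PIO against db/+ PIO. The db/db and non-diabetic values did not overlap, but the 8 others of 24 entries were 0. Of 7 synthesis genes tested Fkbp10 was higher in db/db than in db/+ (0.42, SE 0.12) and Crtap, part of the prolyl 3-hydroxylase complex, lower (-0.64, SE 0.15). Of 4 collagenases tested Mmp13 was lower in db/db (-1.02, SE 0.10, adjusted p = 2.48e-07).

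Markers of other cell types also differed between Cortex arms. Summed FPKM of the 5 macrophage markers was 12.32 to 20.07 in db/db PIO, 19.32 to 48.84 in db/db, 19.03 to 45.33 in db/+ PIO and 23.35 to 44.39 in db/+. C1qa was lower in db/db PIO than in db/db (-0.78, SE 0.22, adjusted p = 0.0475) and in db/db than in db/+ (-0.96, SE 0.23, adjusted p = 0.00778). Of all genes 3.24% and 10.3% were called in these 2 comparisons. The fibroblast sum was 9.65 to 17.06, 13.96 to 17.35, 2.35 to 19.63 and 6.80 to 22.80 FPKM in the 4 arms, and Dcn was lower in db/db than in db/+ (-0.60, SE 0.17). The 7 cartilage markers summed to 0.10 to 0.44, 0.28 to 0.64, 0.81 to 1.70 and 0.89 to 1.62 FPKM, lower in every db/db library than in any non-diabetic library. In these sums 6, 6, 4 and 5 of the markers had a value in the 4 arms, so missing values may in part set the order. The part of these cell types in the collagen values was not tested.

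In DRG no collagen gene was called in any comparison, although a smaller share of entries was missing than in the other tissues and 8 to 12 members were tested. For db/db against db/+ 0 of 9 were called by limma, where 4.13% of 3829 genes were called, and 2 had an unadjusted p under 0.05. For db/db PIO against db/db it was 0 of 11 (1 unadjusted), with 0% of 3794 genes called, and for db/db PIO against db/+ PIO 0 of 12 (2 unadjusted), with 8.64% of 4095. It was 0 of 9 (0 unadjusted) for db/+ PIO against db/+, with 0% of 4153, and 0 of 8 (0 unadjusted) for the difference of PIO responses, with 0% of 3305.

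Ranges of the main chains overlapped between the DRG arms. Col1a1 had 3.78 to 9.13 FPKM in db/db PIO (n = 6), 4.49 to 9.51 in db/db (n = 5), 6.44 to 9.21 in db/+ PIO (n = 5) and 5.70 to 13.03 in db/+ (n = 5), and its log2 difference for db/db against db/+ was -0.39 with a 95% interval of -0.85 to 0.08. Col3a1 had 2.78 to 6.74 in db/db PIO (n = 6), 5.02 to 5.59 in db/db (n = 4), 5.21 to 10.62 in db/+ PIO (n = 5) and 4.93 to 9.86 in db/+ (n = 5). Its log2 difference was -0.53 for db/db PIO against db/+ PIO (95% interval -0.92 to -0.14, adjusted p = 0.0842), which is not a call. Col6a1 had 1.55 to 3.97 in db/db PIO (n = 6), 0.98 to 2.11 in db/db (n = 4), 1.75 to 3.74 in db/+ PIO (n = 4) and 1.54 to 2.45 in db/+ (n = 5), and for db/db against db/+ its interval was -0.56 to 0.22. For db/db against db/+, 2 of 11 synthesis genes tested were called, Fkbp10 (0.36, SE 0.08, adjusted p = 0.0163) and Tll1, a procollagen C-proteinase (-0.41), where 4.13% of all genes were called.

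**Figure D5:**
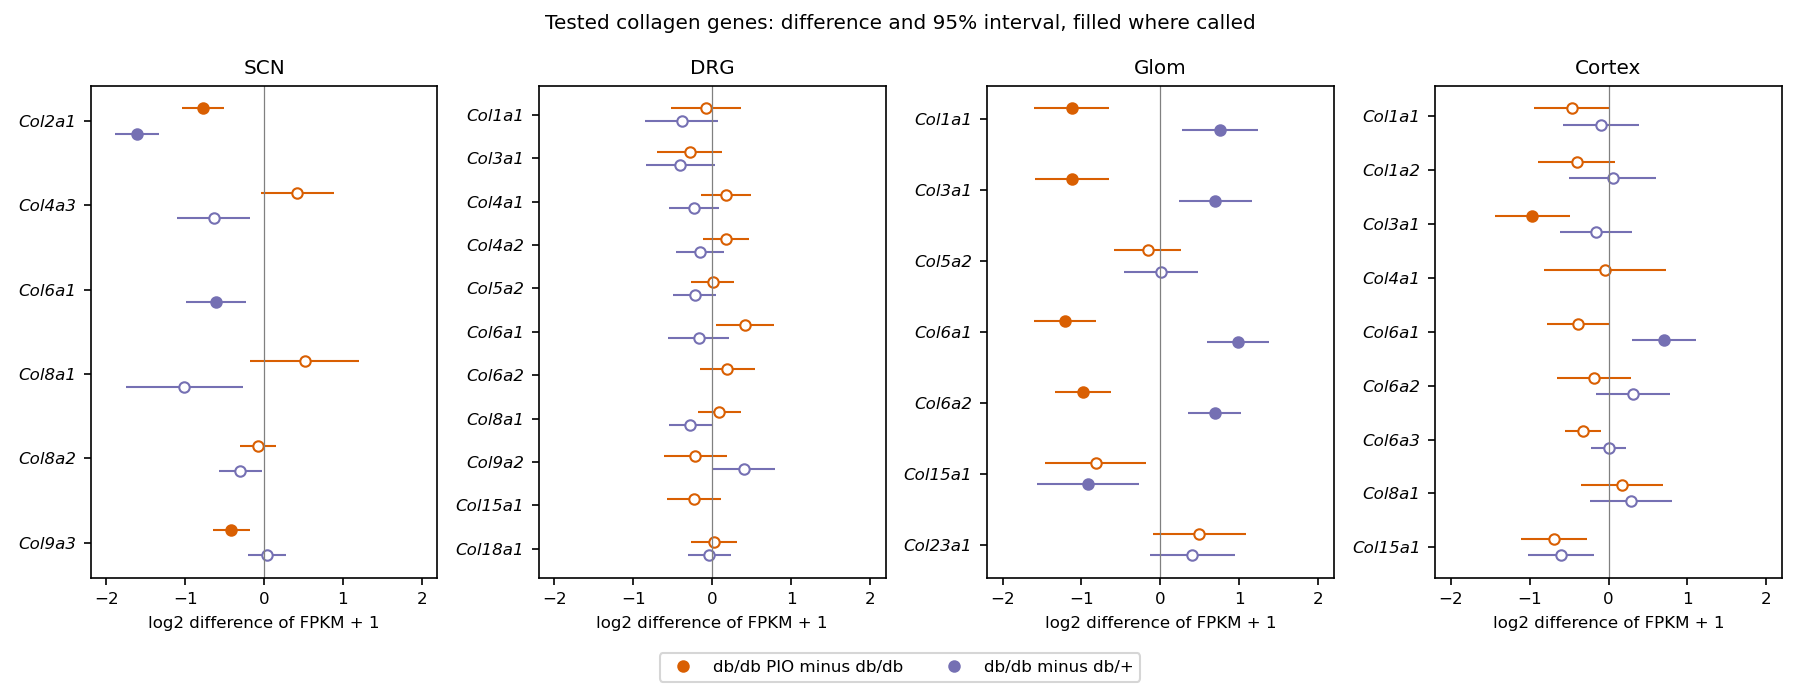
Log2 difference of FPKM + 1 (x axis) with its 95% interval for each tested collagen gene (y axis) in each tissue, for db/db against db/+ and db/db PIO against db/db, filled where called. In Glom the type VI, Col1a1 and Col3a1 points lie right of 0 for db/db and left of 0 for db/db PIO, in SCN the Col2a1 points lie left of 0 in both, and in DRG no point is filled.

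Responses of SCN and Glom were set against each other in a single fit. The response to diabetes, db/db against db/+, differed for 2 of 4 members, where 18.8% of 3502 genes were called. SCN minus Glom was -1.61 (SE 0.16, adjusted p = 1.14e-09) for Col2a1 and -1.58 (SE 0.27, adjusted p = 4.89e-05) for Col6a1. Col6a1 was lower in db/db in nerve and higher in db/db in glomeruli, whereas Col2a1 was at 0.02 to 0.35 FPKM in Glom, where the scale leaves little room for a difference. The call of Col6a1 within SCN was lost in 8 of 24 fits with a library left out. In the fit of Glom alone Col6a1 passed the filter only through db/db libraries. For Col9a3 the difference was 0.03 with a 95% interval of -0.26 to 0.32. The response to PIO differed for 2 of 3 members, with 22.9% of 3345 genes called, at -0.78 for Col2a1 (SE 0.15, adjusted p = 0.000186) and -0.51 for Col9a3 (SE 0.14, adjusted p = 0.00849). Col9a3 too was low in Glom, at 0.11 to 0.54 FPKM, and its call was lost with a pseudocount of 0.1. For both genes the scale holds the Glom response near 0, so this count cannot stand as support for a difference between tissues. Col1a1 and Col3a1 could not enter, as they lacked values in SCN.

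The type IV chains, which the glomerular basement membrane is made of, had few values in glomeruli. In Glom Col4a3, Col4a4 and Col4a5, the podocyte-made set of the mature filter, were listed at 0 in all 24 libraries. Col4a1 had 2 values (54.02 and 159.09 FPKM), Col4a2 had 5 (39.62 to 153.40) and Col4a6 had 6 (3.48 to 5.10). These zeros cannot be read as absent transcript. In Cortex Col4a1 had 12 values (9.52 to 33.93), Col4a2 13 (10.14 to 23.36), Col4a3 3 (6.42 to 25.42), Col4a5 4 (1.05 to 6.48) and Col4a6 23 (0.06 to 0.44), while Col4a4 had none. For Col4a1 in Cortex the difference for db/db PIO against db/db was -0.04, with a wide 95% interval of -0.82 to 0.73. In SCN Col4a2 had 6 values (106.59 to 132.20), Col4a4 3 (0.64 to 1.04) and Col4a5 9 (1.56 to 3.80).

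DRG gave the most complete set of type IV values. Col4a1 spanned 6.15 to 12.61 FPKM in 17 of 23 libraries and Col4a2 4.69 to 9.67 in 21, while Col4a3, Col4a4, Col4a5 and Col4a6 stayed at or below 0.45. The chains of the set α1α1α2 were thus the high ones in ganglia. For db/db against db/+ the 95% interval was -0.54 to 0.09 for Col4a1 and -0.45 to 0.15 for Col4a2, and for db/db PIO against db/db it was -0.14 to 0.49 and -0.11 to 0.47.

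In SCN Col4a3 had 0.51 to 2.14 FPKM in db/db PIO, 0.21 to 0.57 in db/db, 0.15 to 1.07 in db/+ PIO and 0.27 to 2.24 in db/+ (n = 6 each), with medians of 0.655, 0.40, 0.275 and 1.40. The other low type IV chain of nerve, Col4a6, had 0.06 to 0.20, 0.06 to 0.18, 0.22 to 0.45 and 0.16 to 0.55 FPKM in the same arms (n = 6, 6, 6 and 5). Both db/db arms of Col4a6 lay below the lowest db/+ PIO value, and no SCN library reached 1 FPKM.

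The remaining members were low or seldom measured. Among the FACITs, Col9a1, Col9a2, Col16a1, Col20a1 and Col22a1 did not exceed 1 FPKM in kidney, Col14a1 reached 2.94 in Glom, and Col12a1 had a single Glom value of 2.66. Col9a2 had 1.43 to 3.61 FPKM in DRG, where it differed by 0.40 (95% interval 0.00 to 0.79, adjusted p = 0.233) for db/db against db/+. The transmembrane chain Col23a1 was the highest of its class in Glom (3.04 to 10.08, 17 libraries) and differed by 0.40 (95% interval -0.14 to 0.94) for db/db against db/+. Col13a1 and Col17a1, of neuromuscular junctions and hemidesmosomes, stayed under 3 FPKM throughout, as did Col24a1 and Col28a1. Col18a1, the source of endostatin, had 7.40 to 20.52 FPKM in 6 Cortex libraries and 2.64 to 4.54 in 14 DRG libraries. Of the other fibrillar chains, Col1a2 had values in 18 Cortex libraries (2.71 to 9.54), with a difference of -0.40 (95% interval -0.89 to 0.08) for db/db PIO against db/db, and Col5a2 had 6.18 to 12.86 FPKM in 15 Glom libraries, with a difference of 0.01 (95% interval -0.46 to 0.48) for db/db against db/+. Col5a1, Col5a3, Col11a1, Col11a2 and Col27a1 had 0.01 to 10.35 FPKM where they had a value, Col5a3 being highest in DRG and Col11a1 in SCN (1.95 to 4.30). Col10a1 stayed at or below 0.54 FPKM in all tissues and was highest in DRG, with a median of 0.27 FPKM against 0.06 in SCN.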

How the data were processed

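RNA was extracted with Trizol and libraries were made with a TruSeq mRNA kit, which does not mark strand. The authors aligned reads to mm9 with TopHat and Bowtie and computed the deposited FPKM with Cufflinks, 1 value per symbol to 2 decimals. Tool versions were not given in the sources used here. Genes were tested by the authors with Cuffdiff, which cannot be repeated from FPKM. The files hold no counts and no depth per library, so no counting interval is given.

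An exact 0 was read as missing. FPKM was tested as log2(FPKM + 1) with limma 3.58.1 in R 4.3.3 (1 mean per arm, the 4 arms of a tissue in 1 fit, trended empirical Bayes), for genes that reached 1 FPKM in 5 or more libraries of that tissue, with 3 or more values in both arms. P-values are two-sided and Benjamini-Hochberg adjusted over all genes tested, with calls under 0.05. SCN and Glom were set against each other in a fit of both tissues, which takes their libraries as independent. The fitting code was tested on simulated data. Tables were made with Python 3.11.15 and pandas 2.3.3. Coding sequences, exons and coordinates are from GENCODE vM1 on mm9.

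Values are given for members called in db/db against db/+ or db/db PIO against db/db (at most 6 per comparison), for Col1a1, Col3a1 and Col6a1, and for type IV chains, and other members by range. The members, lists and tests were chosen with earlier results of these data known. Alternatives were another pseudocount, no filter, rescaling by median of ratios, quantile normalisation, array weights, no variance trend, a replicate block, at least 5 values per arm, only the arms compared, each 0 as a value, and each library left out in turn. Leaving out SCN db/+ replicates 5 and 6, or the Cortex libraries numbered 6, was added after the data were seen. The numbers in the labels were not taken as pairs.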

Additional observations from a re-analysis of the deposited data

Results flagged for a closer look

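In Glom db/+, replicate 2 lay far from the other 5 libraries for 4 chains, at 2.40 FPKM for Col1a1, 3.97 for Col3a1, 2.50 for Col6a1 and 2.02 for Col6a2, and it also had the highest proximal tubule and fibroblast marker values of its arm. In SCN db/db PIO, replicate 6 lay apart for Col4a3 at 2.14 FPKM. These were 5 of 49 groups tested for a value apart, each made of the values of 1 gene in 1 arm of a tissue, with at least 4 values. A chance rate of about 1 in 20 holds for independent values only, and 4 of the 5 came from 1 library, so the count cannot be weighed against it.

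The response to PIO differed between genotypes by a test of the difference, db/db minus db/+, in SCN for Col2a1 (-0.71), Col9a3 (-0.56) and Col4a3 (1.07), and in Glom for Col6a1 (-1.10) and Col6a2 (-0.81). Of these, Col4a3 of SCN and both Glom genes passed the filter only through the arm in which they were high. Responses differed between tissues, SCN minus Glom, for diabetes at Col2a1 (-1.61) and Col6a1 (-1.58), and for PIO at Col2a1 (-0.78) and Col9a3 (-0.51). The last 4 compare tissues in which the level of a gene differs many-fold, so equal ratios need not give equal differences of log2(FPKM + 1).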

How the results depend on the processing

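Reading 0 as missing had the greatest effect on the calls. With each 0 as a value, the collagen genes called numbered 0 for SCN db/db against db/+, 0 for SCN db/db PIO against db/db, 1 for SCN db/db PIO against db/+ PIO and 0 for the SCN difference of PIO responses. They numbered 1 for Glom db/db against db/+, 0 for Glom db/db PIO against db/+ PIO, 0 for the Glom difference of PIO responses, 0 in each of the 3 Cortex comparisons with calls, and 0 in both tests of SCN against Glom. Col8a2 turned to 1.54 for SCN db/db PIO against db/+ PIO. Of 30 gene calls 18 held in every fit that kept 0 missing and in which the gene was tested, left-out libraries included. Of these 18, 16 were tested in every fit with a library left out, the exceptions being Col1a1 in Glom for db/db PIO against db/db and Col8a2 in SCN.

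With no filter the counts were 5 for SCN db/db PIO against db/+ PIO, 1 for the SCN difference of PIO responses, and 2, 2 and 5 for Cortex db/db against db/+, db/db PIO against db/db and db/db PIO against db/+ PIO. Quantile normalisation gave 4 and 3 for db/db against db/+ in SCN and Glom, 2 in Cortex, and 1 for the difference of PIO responses in SCN and in Glom. Using only the arms compared gave 1 for SCN db/db against db/+, 1 for SCN db/db PIO against db/db, 3 for Glom and 0 for Cortex db/db against db/+. Array weights gave 1 for DRG db/db against db/+, 4 for the Glom difference of PIO responses, and 2, 4, 5 and 1 for the 3 Cortex comparisons and the Cortex difference of PIO responses. A pseudocount of 0.1 gave 2 for Cortex db/db PIO against db/db and 1 for the PIO response of SCN against Glom. Median-of-ratios rescaling gave 2 for Cortex db/db against db/+. Asking for 5 values gave 2, 2 and 1 in the 3 Cortex comparisons. The cause of these changes was not tested.

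The replicate block left 17 of 22 counts identical and gave 1 for DRG db/db PIO against db/+ PIO and 2 for Cortex db/db PIO against db/db. With the block, calls were lost for Col4a3 in the SCN difference of PIO responses, Col15a1 in Glom (-0.81) and Col6a1 in Cortex for db/db against db/+. Pairing by number was asked to show a correlation of deviations over 0.1 in every same-numbered pair, and 10 of 36 pairs in SCN, 15 of 33 in DRG, 20 of 36 in Glom (median 0.12) and 11 of 36 in Cortex did so. Libraries correlated best with their own number in 6 of 24 SCN, 4 of 23 DRG, 6 of 24 Glom and 5 of 24 Cortex cases. In fits added after the data were seen, leaving out SCN db/+ replicates 5 and 6 gave 2 for SCN db/+ PIO against db/+, and leaving out the Cortex libraries numbered 6 gave 2, 3 and 5 for Cortex. These counts cannot stand as support, because the libraries left out were extreme in genes then tested.

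Leaving out each library in turn gave 1 to 3, 1 to 2 and 2 to 4 in the 3 SCN comparisons of diabetic mice and 0 to 3 for the SCN difference of PIO responses. It gave 0 to 1 for DRG db/db PIO against db/+ PIO, 2 to 5, 3 to 5 and 1 to 1 for Glom, 1 to 3 for the Glom difference of PIO responses, and 0 to 1, 0 to 2 and 2 to 4 for Cortex. Few values per arm limited the tests, and in SCN at most 7 of 38 collagen genes entered a comparison.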
